A study of Mus musculus with 7 samples.

Results

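The regions contacted by the mG900 enhancer were compared between CD4 T cells cultured under Th0 conditions and under Th2 conditions. Every significant interacting region listed for the mG900 bait in the Th0 library (97 regions) and in the Th2 library (237 regions) was taken, which made 334 of the 1153 regions listed over the 7 libraries of the series. A region was called shared when at least 1 base of it lay in a region of the other list, and Th0-only or Th2-only otherwise. Chromosome 2, which carries both the bait and Gata3, was treated apart from the other chromosomes. The 72 regions of the naive library of the same bait served as background.

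The study used circular chromosome conformation capture (4C-seq) to ask which DNA lies near the Gata3 promoter and near mG900 in mouse CD4 T cells. All 3 mG900 libraries came from wild-type (WT) cells, and no deletion or transgene entered the comparison. The naive cells, purified from spleen and lymph nodes by a kit, were untreated. Th0 and Th2 cells were such cells stimulated for 3 days through CD3ε (antibody on the plate) and CD28 (soluble antibody). The Th0 culture received nothing further, and the Th2 culture received IL-4 with an antibody that blocks IFN-γ. The age and number of the animals are not given in the sources used here. There was 1 library per condition, so no spread between replicates could be measured, no test was made, and condition and library cannot be told apart. 4C-seq measures no expression, so the labelled cell state could not be checked against marker genes.

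GATA3 is the transcription factor that directs naive CD4 T cells to the Th2 fate, in which they make IL-4, IL-5 and IL-13, and IL-4 acts on it through STAT6. mG900 is the mouse counterpart of hG900, a human region far from GATA3 that carries asthma-associated variants. Enhancers act on promoters that can lie far away along the chromosome and that come near them in the folded chromatin. In 4C-seq the crosslinked chromatin is cut, pieces that lie together are ligated, and the pieces joined to a chosen fragment, the bait, are amplified and sequenced. A region listed as significant is a stretch of fragments captured more often than its surroundings by the caller's model, and a stretch missing from a list was below the threshold, which does not make it free of contact.

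The bait lay in the intergenic stretch between Celf2 and Gata3, 931.3 kb below the Gata3 transcription start (mm10, chromosome 2). Its NlaIII fragment ran from 8946523 to 8947293 (771 bp), and the nearest protein-coding gene, Gata3 (ENSMUSG00000015619), ended 909.8 kb away. The sequences around the 2 cut sites that define the bait, from the RefSeq GRCm38.p6 assembly, show where every captured molecule begins; capitals mark each CATG in the first and the GATC in the second, and the fragment starts at the last CATG of the first.
NlaIII site at the lower end of the bait fragment, chr2:8946495-8946554, plus strand: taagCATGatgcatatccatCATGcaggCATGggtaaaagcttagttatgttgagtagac
DpnII site inside the bait fragment, chr2:8946840-8946899, plus strand: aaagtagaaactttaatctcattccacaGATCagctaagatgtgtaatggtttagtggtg

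The resolution of the lists is that of the NlaIII sites, since 97.16% of the 668 edges of Th0 and Th2 regions fell on a CATG. The closest approach of a Th2-only to a Th0-only region on chromosome 2 shows what a call of "not shared" can mean. The Th2 region chr2:8740228-8767831 ended with the second CATG printed here, and the Th0 region chr2:8767999-8778509 began with the last one, 0.167 kb further on (capitals mark CATG).
Stretch between the adjoining Th2-only and Th0-only regions, chr2:8767808-8768022, plus strand: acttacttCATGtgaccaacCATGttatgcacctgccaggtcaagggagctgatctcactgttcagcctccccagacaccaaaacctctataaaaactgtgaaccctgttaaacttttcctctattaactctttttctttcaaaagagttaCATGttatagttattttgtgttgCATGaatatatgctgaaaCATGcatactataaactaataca
Both regions lay on the centromere side of the bait, under 200 kb from it, and lay this close without overlapping.

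The edges of the shared region at Gata3 lay at different sites in each list. On the side upstream of Gata3 the Th0 region ended at 9903118 and the Th2 region at 9909199, each at the last capital CATG of the following lines.
End of the Th0 region, chr2:9903087-9903146, plus strand: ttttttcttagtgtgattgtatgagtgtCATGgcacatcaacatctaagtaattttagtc
End of the Th2 region, chr2:9909168-9909227, plus strand: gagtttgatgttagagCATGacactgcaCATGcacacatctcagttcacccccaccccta
The 250 bases before the RefSeq start of Gata3 lay wholly in the Th0 and in the Th2 region and outside every naive region. Among the lists of this bait, those of Taf3, a subunit of the general transcription factor TFIID, lay wholly in a Th0 region only. Those of Sfmbt2, a Polycomb group gene, lay in these lists wholly in a Th2 region only. These bases are printed on the strand of the gene, with cut sites (CATG for NlaIII or GATC for DpnII) and factor motifs in capitals wherever either strand holds them. The motifs searched were GATA for GATA factors, TGANTCA for AP-1, and TTC followed by any 4 bases and GAA, here called the STAT motif. STAT sites of another spacing were not searched.
Gata3, chr2:9878601-9878850, minus strand: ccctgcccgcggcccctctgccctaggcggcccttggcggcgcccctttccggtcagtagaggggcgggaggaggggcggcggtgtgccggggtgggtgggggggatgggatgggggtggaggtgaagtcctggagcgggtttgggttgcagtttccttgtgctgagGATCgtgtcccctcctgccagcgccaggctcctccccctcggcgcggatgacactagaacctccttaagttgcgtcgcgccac
Taf3, chr2:10048610-10048859, minus strand: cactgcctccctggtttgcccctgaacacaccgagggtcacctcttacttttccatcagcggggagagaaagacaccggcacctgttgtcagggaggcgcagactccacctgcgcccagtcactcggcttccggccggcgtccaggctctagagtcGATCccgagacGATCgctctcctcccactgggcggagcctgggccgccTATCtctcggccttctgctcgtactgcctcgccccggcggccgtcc
Sfmbt2, chr2:10370201-10370450, plus strand: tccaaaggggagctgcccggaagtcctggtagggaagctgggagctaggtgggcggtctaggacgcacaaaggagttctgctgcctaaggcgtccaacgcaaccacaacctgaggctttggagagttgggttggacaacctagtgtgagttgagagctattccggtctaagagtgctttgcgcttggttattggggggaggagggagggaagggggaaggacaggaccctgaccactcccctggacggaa
None of the 3 held a CATG, so each lay inside a single NlaIII fragment, of 1.52 kb at Gata3, 1.06 kb at Taf3 and 1.75 kb at Sfmbt2. Of the factor motifs searched, the 3 held only 1 GATA (read as TATC), before Taf3. Over all 32851 RefSeq promoter windows of the same length, 53.9% held a CATG, 53.6% the GATA motif, 6.75% the AP-1 motif and 5.85% the STAT motif.

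The Th2 list was the longer one in both compartments, and few regions were in both. On chromosome 2 the Th0 list held 29 regions and the Th2 list 67, and 3 regions of each overlapped the other list. This was 10.3% of the Th0 regions (95% Wilson interval 3.58% to 26.4%) and 4.48% of the Th2 regions (1.53% to 12.4%), where the intervals cover counting error only. As the background to these counts, 0.401% of 17452 windows of 50 NlaIII sites along chromosome 2 touched a Th0 region and 0.928% touched a Th2 region. The lists were denser near the bait. Within 2 Mb of it 2 of 9 Th0 and 2 of 18 Th2 regions were shared. There 5.5% of 418 windows touched a Th0 region and 12.9% a Th2 region. The windows were also shorter than the regions, which held a median of 64 sites in Th0 and 69 in Th2. On the other chromosomes 2 of 68 Th0 regions (2.94%) and 2 of 170 Th2 regions (1.18%) were shared, and 0.648% and 1.58% of windows of 500 sites touched a region of the Th0 and Th2 list. The naive list held 28 regions on chromosome 2 and 44 elsewhere.

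Region size differed little between the lists, so the Th2 list was longer by number. The median length on chromosome 2 was 14.4 kb in Th0, 13.8 kb in Th2 and 13.0 kb in naive cells, and on the other chromosomes 129 kb, 131 kb and 132 kb. The summed length on chromosome 2 was 421 kb in Th0 and 1074 kb in Th2. No region on chromosome 2 held fewer than 51 NlaIII sites and none elsewhere fewer than 501, so lengths and counts cannot be compared between the 2 compartments. The read depth of the libraries is unknown, as the lists hold neither counts nor scores, and its part in the number of regions was not tested.

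Gata3 itself was in both lists. The Th0 region chr2:9857229-9903118 (45.9 kb, 161 NlaIII sites) covered 99.5% of the annotated gene and the Th2 region chr2:9858376-9909199 (50.8 kb, 175 sites) covered 96.1%, and both touched all 10 merged exons; the Th2 region began inside the gene and left out its downstream end. The naive region here, chr2:9886176-9908970, covered 11.7% of the gene, at its upstream end, and did not reach the RefSeq start. It did hold the start of the gene in the GENCODE annotation, at 9890034, which is the start used in the gene counts below. The same Th0 and Th2 regions contained the whole of the short neighbouring genes 4930412O13Rik and 9230102O04Rik. No Gata3-TSS list overlapped them, and that bait was placed inside them, at the promoter.

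Taf3, the next gene beyond Gata3, was in both lists, through regions that shared 6.67 kb, which was 37.1% of the Th0 region and 10.7% of the Th2 region. The Th0 region chr2:10039516-10057495 (18.0 kb) held the start of Taf3, 6.78% of the gene, and 6.04% of Atp5c1, a subunit of the mitochondrial ATP synthase. The Th2 region chr2:9983701-10046187 (62.5 kb, 319 sites) lay wholly inside Taf3 and covered 46.6% of it, mostly intron, ending 2.41 kb short of the gene's start. The Taf3 stretch was the longest Th2 region on chromosome 2 and was touched by regions of all 7 libraries, and 4 naive regions covered 42.4% of the gene. The third shared region on chromosome 2, chr2:98656990-98671576 in Th0 and chr2:98657378-98671576 in Th2, lay 89.7 Mb from the bait, contained the predicted genes Gm10801 and Gm10800, was called in all 7 libraries and was 58.3% repeat sequence. For a count of loci, overlapping regions of all lists were merged. Without the loci called in all 7 libraries, 1 of 27 Th0 regions and 1 of 65 Th2 regions on chromosome 2 was shared, namely Gata3. This left out the Th0 region at Taf3 with its locus, although that region by itself met regions of only 4 of the 7 libraries, its own included. Leaving out only repeat-rich loci called in 6 or 7 libraries, chosen after seeing the data, gave 2 of 28 and 2 of 66, at Gata3 and Taf3. Counting regions up to 10 kb apart as shared gave 6 of 29 (20.7%) and 6 of 67 (8.96%), and keeping only regions of at least the median length gave 3 of 15 and 3 of 34.

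**Figure D1:**
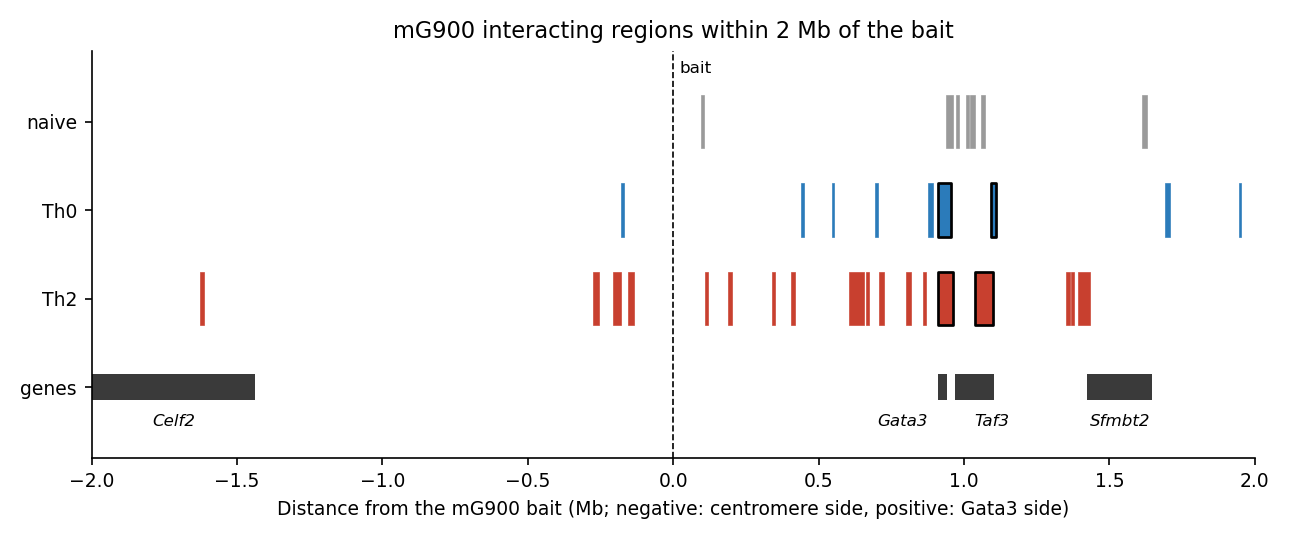
Interacting regions of the mG900 bait in naive, Th0 and Th2 cells by distance from the bait in Mb, with 4 genes below; each bar is a region drawn to scale, and black outlines mark regions shared by the Th0 and Th2 lists. The Th2 row holds 18 regions and the Th0 row 9, and both have the outlined pair at Gata3 and Taf3.

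Within 2 Mb of the bait there were 9 Th0 regions, 18 Th2 regions and 7 naive regions. Of these 7 were Th0-only and 16 Th2-only, and 5.5% and 12.9% of the 418 windows of 50 sites in this stretch touched a Th0 and a Th2 region. Most lay in the gene desert from Celf2 to Gata3 (chr2:7509564-9857077, 2348 kb, no protein-coding gene and 14 genes of other types). It held 5 Th0 regions covering 2.42% of it, 12 Th2 regions covering 9.16% and 1 naive region covering 0.323%.

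The Th2-only regions of the desert formed runs on either side of the bait. On the centromere side the run was chr2:8672476-8692599, chr2:8740228-8767831 and chr2:8792918-8811886, at 254, 179 and 135 kb from the bait. On the Gata3 side the nearest were chr2:9055564-9067343 at 108 kb and chr2:9133742-9148112 at 186 kb. Both lay closer to the bait than any Th0 region on that side, where the first started 439 kb away. The nearest naive region, at 96.6 kb on the same side, lay closer still. Further along came chr2:9286927-9297273 at 340 kb and chr2:9352668-9365502 at 405 kb. The last run, chr2:9552596-9601537 (48.9 kb), chr2:9610283-9620263, chr2:9656232-9670609, chr2:9748859-9763224 and chr2:9805809-9817095, at 605 to 859 kb, led up to the regions at Gata3 and Taf3. With gaps of up to 100 kb, these last 5 and the regions at Gata3 and Taf3 made 1 group of 7 regions over 494 kb, the largest group in either list. Th2-only means absent from the Th0 list of this bait, and many of these regions recurred elsewhere. Of the 7 libraries, their own included, those on the centromere side were found in 5, 5 and 3. Those on the Gata3 side were found, in the order given, in 2, 2, 4, 5, 5, 1, 4, 5 and 1. The ones found in 5, and the one at 340 kb, overlapped the Gata3-TSS list of WT Th0 cells.

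The Th0-only regions of the desert were interleaved with the Th2-only ones. They were chr2:8767999-8778509 at 168 kb on the centromere side, and chr2:9386706-9397139, chr2:9491940-9500749, chr2:9639822-9652488 and chr2:9824294-9838724 on the Gata3 side at 439, 545, 693 and 877 kb. In the same order, their gaps to the nearest Th2 region were 0.167, 21.2, 51.8, 3.74 and 7.20 kb. In that order the Th0-only regions were found in 4, 1, 4, 4 and 1 of the 7 libraries, their own included. Those found in 4 overlapped the Gata3-TSS list of WT Th2 cells. When regions up to 10 kb apart were counted as shared, 4 rather than 7 Th0-only regions remained within 2 Mb. Beyond Taf3 the lists parted further, with Th0 regions chr2:10637601-10655054 at 1690 kb and chr2:10892027-10900067 at 1945 kb, which lay 257 and 281 kb from the nearest Th2 region. The Th2 list there had 3 regions at and before Sfmbt2, chr2:10298690-10310398, chr2:10313842-10326736 and chr2:10337406-10380435, the last with the Sfmbt2 start and 4 of its 26 merged exons. This last region was found in 5 of the 7 libraries, among them the Gata3-TSS lists of WT Th0 and Th2 cells. A naive region of the mG900 bait covered 6.69% of Sfmbt2 without its start. On the centromere side the only other Th2 region within 2 Mb, chr2:7319129-7334079, was intronic in Celf2.

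The counts thinned with distance in both lists, and the Th2 list was fuller at 2 to 20 Mb. In that stretch 0.913% of windows touched a Th0 region and 3.56% a Th2 region, whereas beyond 20 Mb the shares were 0.182% and 0.202%. On the Gata3 side at 2 to 5 Mb the Th0 list had 0 regions, the Th2 list 7 and the naive list 2. At 5 to 10 Mb on that side the numbers were 2, 11 and 0, and at 10 to 20 Mb they were 2, 7 and 2. Beyond 50 Mb they were 5, 5 and 10. The lists thus differed in number near the bait and hardly at the far end of the chromosome.

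**Figure D2:**
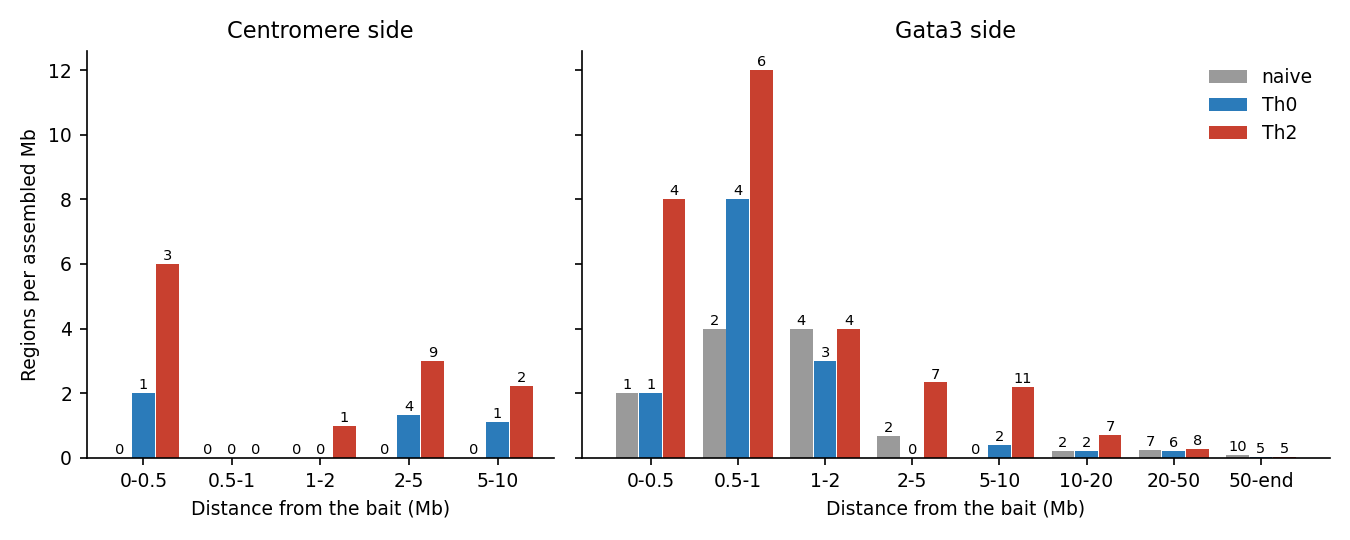
Regions per Mb of assembled sequence by distance from the bait (Mb) on the centromere side and on the Gata3 side, with bars for naive, Th0 and Th2 and the number of regions above each bar. The Th2 bar is highest at 0.5 to 1 Mb on the Gata3 side (12 per Mb, 6 regions), and at 2 to 5 Mb on that side it stands at 7 regions against 0 for Th0.

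The spread over distance was described by the share of each list near the bait. The median distance was 5.16 Mb in Th0, 4.65 Mb in Th2 and 31.0 Mb in naive cells. Within 20 Mb lay 62.1% of the Th0 regions, 80.6% of the Th2 regions and 39.3% of the naive regions. Within 2 Mb the shares were alike, at 31.0%, 26.9% and 25.0%. The Th0 and Th2 curves ran together out to about 5 Mb and separated after it. The naive curve was lower at 1 Mb, with 10.7% against 20.7% in Th0 and 19.4% in Th2. It was near the others at 2 Mb and lower again at 5 Mb, with 32.1% against 44.8% and 50.7%.

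**Figure D3:**
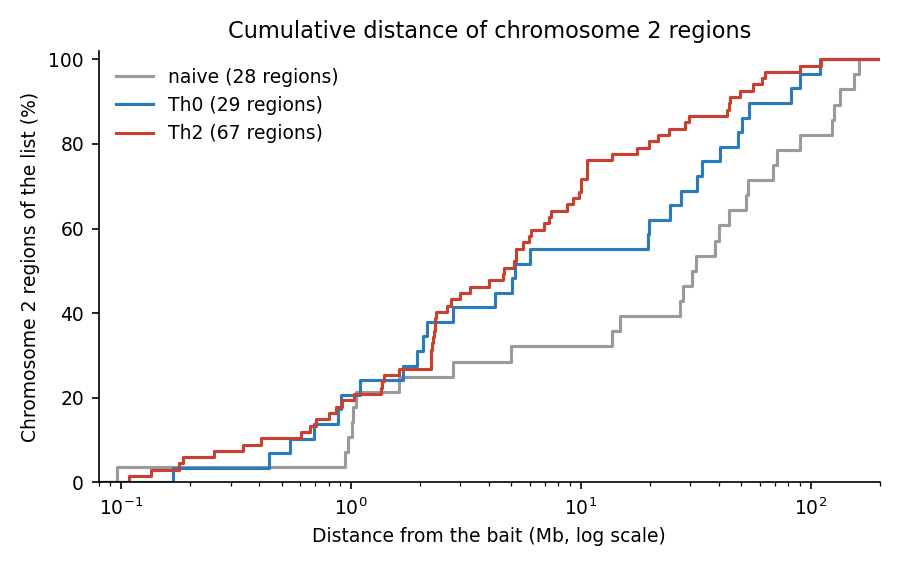
Cumulative share of the chromosome 2 regions of each list (percent) by distance from the bait (Mb, log scale), in steps of 1 region. The Th2 curve is at 80.6% and the Th0 curve at 62.1% by 20 Mb, and the naive curve is at 39.3%.

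The Th0 and Th2 lists had regions on both sides of the bait, and the naive list on the Gata3 side only. On the Gata3 side lay 79.3% of Th0 regions (23 of 29) and 77.6% of Th2 regions (52 of 67), with intervals of 61.6% to 90.2% and 66.3% to 85.9%. All 28 naive regions lay there, but only 9 of them lay within 10 Mb of the bait, and the centromere side is shorter than that. The centromere side offers 5.90 Mb of assembled sequence against 172 Mb, so its 6 Th0 and 15 Th2 regions made 1.02 and 2.54 regions per Mb, above the 0.133 and 0.302 per Mb of the Gata3 side. Among regions within 5 Mb of the bait, where each side has as much sequence, 61.5% of Th0 and 61.8% of Th2 regions were on the Gata3 side. The Th0 and Th2 lists were thus split alike by side. The naive list had only 9 regions within 5 Mb, with 0 on the centromere side, and this difference was not tested.

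More of the protein-coding genes within 5 Mb were touched by the Th2 list, which also had more regions there. Of the 47 such genes, 7 lay in a Th0 region (14.9%), 13 in a Th2 region (27.7%) and 6 in a naive region (12.8%). The same stretch held 13 Th0 regions (202 kb), 34 Th2 regions (646 kb) and 9 naive regions (131 kb). The gene counts were not corrected for this. Over the whole of chromosome 2 the Th0 regions touched 20 and the Th2 regions 44 of 1843 protein-coding genes (1.09% and 2.39%), and 10 genes were in both. Only 10 of the 20 and 17 of the 44 had their start inside a region.

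Celf2, which encodes an RNA-binding splicing regulator and borders the desert on the centromere side, was the gene with most regions within 5 Mb of the bait. The Th2 list had 6 regions in it and the Th0 list 2, which covered 11.3% and 3.32% of its 970 kb, and no naive region touched it. Of the Th2 regions, 5 formed a group from 6570393 to 6724357, with chr2:6570393-6600595 the longest, and chr2:6704931-6724357 and chr2:6685409-6704428 among them were also touched by both the Gata3-TSS lists of WT Th0 and Th2 cells. The Th0 regions, chr2:6785792-6797032 and chr2:6859887-6880795, lay between this group and the sixth Th2 region and overlapped neither; the first was intronic only and the second held 2 merged exons. An internal RefSeq start of Celf2 lay in the second Th0 region and another in the Th2 region ending at 6724357.

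Prkcq and Il2ra, both T cell activation genes, were in Th2 regions and in no Th0 or naive region. Prkcq encodes protein kinase C theta, which carries the T cell receptor signal. It held 4 Th2-only regions, chr2:11180976-11190123, chr2:11200776-11209425, chr2:11218012-11231154 and chr2:11275516-11283827, covering 30.4% of the gene, with the first of them 8.87 kb from its start. The first pair was intronic only, and the other regions held 1 and 3 of 19 merged exons. Il2ra encodes CD25, the alpha chain of the IL-2 receptor, and the Th2 region chr2:11674262-11691896 covered 35.0% of it with 7 of its 9 merged exons. The starts of both genes lay outside, as did the 300 bases around each RefSeq start. Counting their own, the 4 Prkcq regions were found in 4, 4, 4 and 3 of the 7 libraries, 3 of them in the Gata3-TSS list of Th2 cells and the first also in that of Th0 cells. The Il2ra region was found in 2 of the 7, the other being the Gata3-TSS list of Th0 cells.

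Other genes near the bait were in 1 list only. Upf2 (nonsense-mediated decay), Usp6nl and Pter had their starts in Th2 regions, Bend7 had its start in a Th0 region, and Frmd4a and Camk1d were touched by Th2 regions in introns. The remaining genes within 5 Mb, such as Vim, Il15ra and Pfkfb3, lay in neither list, and the Th2 list came within 12.5 kb of the start of Vim and 13.4 kb of that of Il15ra. Further out, Stam, Cacnb2 and Nsun6 were in both lists by different regions. Stam, an adaptor of cytokine receptor trafficking, held the Th0 region chr2:14104144-14113363 in an intron and the Th2 region chr2:14065175-14083401 at its start. Cacnb2, a calcium channel subunit, held 4 merged exons in the Th0 region chr2:14980030-14996183 and was intronic in the Th2 region chr2:14903385-14915783.

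The other long regions beyond 2 Mb carried no gene common to both lists. Among the longest Th2-only ones were chr2:18929957-18952938 in introns of Pip4k2a, a phosphoinositide kinase, chr2:37419188-37439611 with Rc3h2, Zbtb6 and Zbtb26, and chr2:15902822-15921044 in an intron of Malrd1. Among the longest Th0-only ones, chr2:28835745-28850786 held the starts of Gtf3c4 and Ddx31, chr2:28521316-28535770 lay in Ralgds, chr2:41102548-41117021 in Lrp1b, chr2:49124184-49139633 in Mbd5 and chr2:62897672-62912217 in Kcnh7. The other 3 of the longest Th0-only regions, chr2:3891538-3906947, chr2:36312953-36329647 and chr2:118945993-118960554, held no protein-coding gene. None of these Th0-only regions was touched by a region of any of the other 6 libraries, and the same held for the Th2 region in Malrd1, while those at Rc3h2 and Pip4k2a were found in 4 and 2 of the 7.

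Most unshared regions lay far from the other list. Of the 64 Th2-only regions on chromosome 2, 3 lay within 10 kb and 17 within 100 kb of a Th0 region, with a median gap of 362 kb. Of the 26 Th0-only regions, 3 lay within 10 kb and 9 within 100 kb of a Th2 region, with a median gap of 247 kb. Th2 regions also lay closer to one another, with 33 of 67 in 10 groups whose gaps were at most 100 kb, against 6 of 29 Th0 regions in 3 groups. A longer list puts more of its regions within a fixed gap of one another. Lists of equal length were not compared.

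The base composition of the regions was close to that of the chromosome. On chromosome 2 the median GC content was 41.1% in Th0-only regions, 42.2% in Th2-only regions, 41.7% in naive regions and 41.5% in windows of 69 sites. The median repeat content was 24.1%, 24.4%, 21.6% and 27.1%. The GATA motif stood at 69.6 per 10 kb in Th0-only, 61.8 in Th2-only and 64.4 in windows, the AP-1 motif at 3.58, 3.79 and 3.04, and the STAT motif at 3.76, 2.97 and 2.96. By these medians the GATA motif was no denser in Th2-only regions than in windows, and the STAT motif was as dense in Th2-only regions as in windows. Both strands were searched, and overlapping matches each counted.

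The gene lists of T cell programs, set beside all genes, gave the following members. Over all chromosomes 0.597% of 21938 protein-coding genes lay in a Th0 region and 1.91% in a Th2 region. The lists were chosen with earlier results of these data known, so these shares cannot show an enrichment, and none was tested. Gata3, Il2ra and Prkcq also lie within 5 Mb of the bait, where the shares of all genes were 14.9% and 27.7%. Of 30 Th2 program genes, Gata3 lay in a Th0 region, and Gata3, Il2ra and Il1rl1 lay in Th2 regions. Of 30 genes of the Th1, Th17 and Treg programs, 0 lay in a Th0 region and 4 in a Th2 region, namely Ifngr1, Il18r1, Ahr and Tgfb1. Of 33 genes of CD4 T cell identity and T cell receptor signalling, 0 and 4 did so, the latter being Il7r, Bcl11b, Themis and Prkcq. Of 21 genes of the loop and enhancer machinery only Crebbp, and of 20 B cell and myeloid markers only Cd14, lay in a Th2 region, and none of either list in a Th0 region. In the naive list Gata3 was the only member of any of these lists.

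These T cell genes lay on several chromosomes and mostly with their starts in a Th2 region. The region chr1:40378221-40493030 held all of Il1rl1, which encodes the IL-33 receptor ST2 of Th2 cells, and 77.8% of the adjoining Il18r1, an IL-18 receptor chain. The region chr10:19527712-19651079 held all of Ifngr1, the IFN-γ receptor chain, with Il22ra2. The only Th2 region of chromosome 15, chr15:9476166-9575315, held all of Il7r, the IL-7 receptor of naive and memory T cells. The region chr12:107881268-108000440 covered 96.6% of Bcl11b, a T lineage transcription factor, without its start, and chr12:35523068-35666850 held 32.3% of Ahr with its start. The region chr10:28459491-28741835 (282 kb) held 34.1% of Themis, a T cell receptor signalling protein, with Ptprk. The region chr7:25612548-25743816 held all of Tgfb1, and chr16:4151161-4262630 held 47.4% of Crebbp. Of these regions, those at Il7r and Crebbp were called in 2 of the 7 libraries and the others in the Th2 library of this bait alone.

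On the chromosomes other than 2 the lists differed in which chromosomes they filled. The Th2 list had more regions on 13 of 20 chromosomes, as many on 5 and fewer on 2. On chromosome 10 there were 3 Th0 and 24 Th2 regions, on chromosome 9 there were 3 and 18, on chromosome 12 there were 2 and 14, and on chromosome 8 there were 1 and 10. Chromosome 15 ran the other way with 9 Th0 and 1 Th2 regions, and chromosome 17 with 4 and 2. Chromosome 10 held 4.41% of the Th0, 14.1% of the Th2 and 15.9% of the naive regions, and chromosome 15 held 13.2%, 0.588% and 0%; windows of 500 sites lay on them in 5.33% and 4.25% of cases. The Th2 and naive lists were thus alike in their share of chromosome 10, although the naive list there counted 7 regions.

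**Figure D4:**
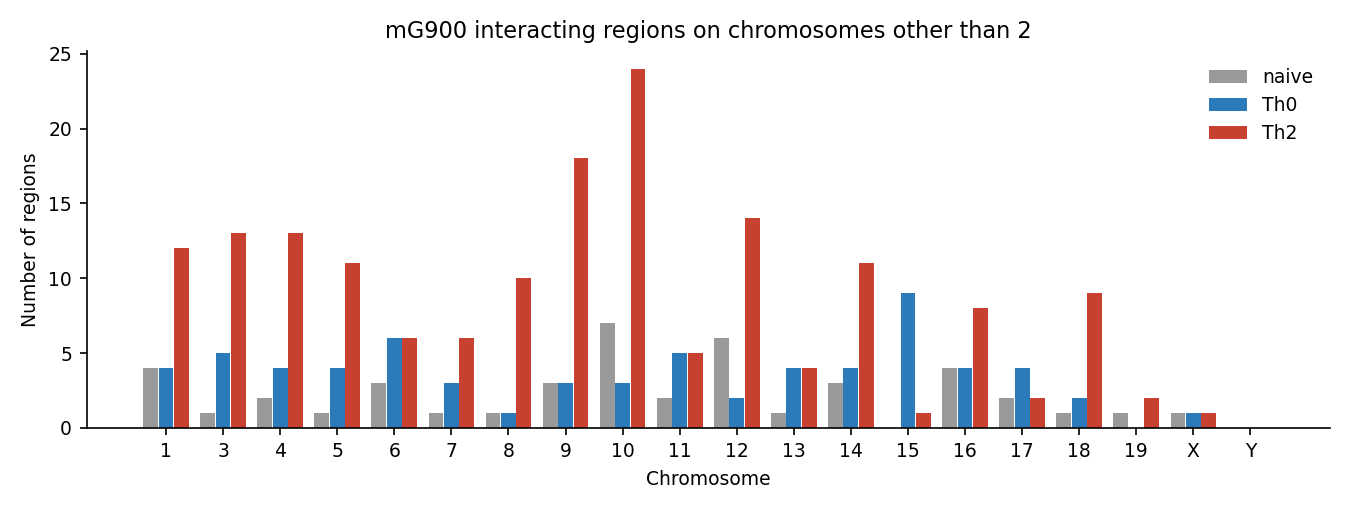
Number of interacting regions on each chromosome other than 2 for the naive, Th0 and Th2 libraries of the mG900 bait. Th2 reaches 24 on chromosome 10 against 3 for Th0, and chromosome 15 has 9 Th0 regions and 1 Th2 region.

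The regions shared by both lists elsewhere lay at the centromeric ends of 2 chromosomes. On chromosome 11 the Th0 region chr11:3124981-3242616 and the Th2 region chr11:3141962-3273382 held Sfi1, Drg1 and Eif4enif1 and were 35.1% and 37.7% repeat. On chromosome 9 the Th0 region chr9:3000247-3107737 and the Th2 region chr9:3002076-3120495 held 9 predicted genes and were 64.4% and 62.1% repeat. Both loci were called in all 7 libraries, and without them 0 of 66 Th0 and 0 of 168 Th2 regions were shared. By counting error alone this allows a share of up to 4.55% and 1.79%. These limits treat regions as independent draws, which neighbouring regions are not, and do not measure the spread between libraries. Another Th0 region, chr14:19365010-19524179, was called in 6 of 7 libraries but not in Th2 cells with this bait, and 31.4% of it was unknown sequence.

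The longest regions elsewhere held the following genes. The longest Th2-only ones were chr14:14434313-14731426 with Slc4a7, the Themis region, chr6:38298065-38556543 with Zc3hav1, Zc3hav1l, Ttc26, Ubn2, Fmc1 and Luc7l2, and chr10:17759003-17998528 with Txlnb and Heca. After these came regions with Fgf2 and Nudt6 (chr3:37243897-37436336), Anxa11 (chr14:25705698-25895425), Ubash3b, a negative regulator of T cell receptor signalling (chr9:41075030-41258578), Ptpn18 (chr1:34424372-34605963), Tab2, an adaptor of NF-κB signalling (chr10:7884550-8064556), Arid4b (chr13:13934556-14114047) and Sesn3 (chr9:14180251-14356495), and a gene-free one (chr5:61462622-61634028). The longest Th0-only ones were chr3:15490141-15790401 with Sirpb1b, of which 49.96% was unknown sequence, chr13:8921359-9093924 with Larp4b and Gtpbp4, and chr10:53525511-53697414 with Mcm9 and Asf1a. Long Th0-only regions at chr4:34224227-34383813, chr7:94282010-94438840 and chr10:17261904-17415326 held no protein-coding gene, and the last lay 90.1 kb from a Th2 region.

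Mouse chromosomes carry the centromere at an end, and the bait lies toward that end of chromosome 2. Regions of the Th0 and Th2 lists on the other chromosomes lay toward the same end more often than windows did, most often in the Th2 list. The centres of 24 of 68 Th0 regions (35.3%, 95% Wilson interval 25.0% to 47.2%), 88 of 170 Th2 regions (51.8%, 44.3% to 59.2%) and 10 of 44 naive regions (22.7%, 12.8% to 37.0%) lay in the first 30 Mb of their chromosome, against 21.3% of windows of 500 sites. The median position was 38.5 Mb in Th0, 27.1 Mb in Th2, 60.2 Mb in naive cells and 66.7 Mb over windows. The Gata3-TSS bait gave 41.4% in Th0 and 36.4% in Th2 cells for the same share, also above the windows. On chromosome 10, 18 of the 24 Th2 regions were in the first 30 Mb, on chromosome 9 it was 10 of 18, and neighbouring regions of 1 list are not independent.

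**Figure D5:**
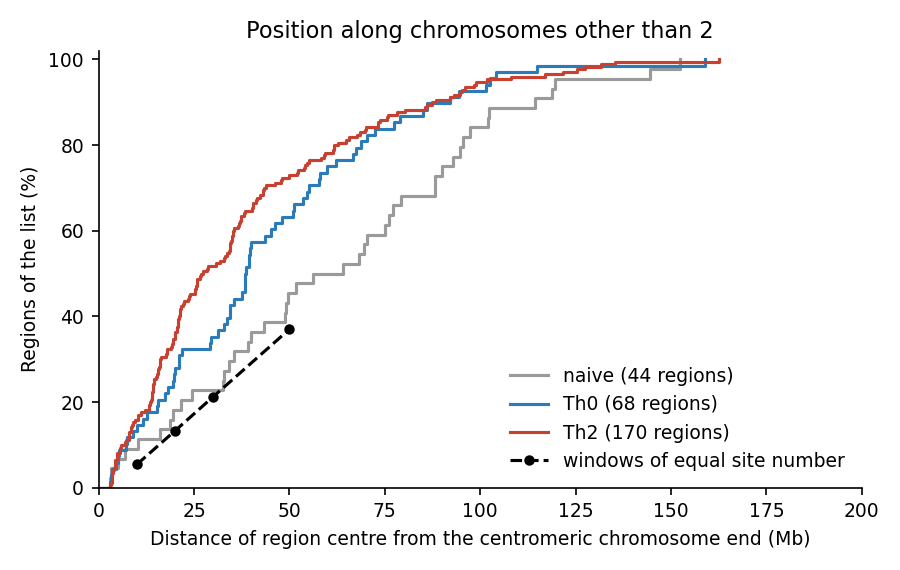
Cumulative share of the regions on chromosomes other than 2 (percent) by distance of the region's centre from the centromeric chromosome end (Mb), with dashed points for windows of 500 NlaIII sites. At 30 Mb the Th2 curve is at 51.8%, the Th0 curve at 35.3%, the naive curve at 22.7% and the windows at 21.3%.

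Th2 regions elsewhere also lay in runs. With gaps of up to 1 Mb, 58 of the 170 Th2 regions fell into 23 groups, 6 of them of 3 or more regions, and 4 of the 68 Th0 regions fell into 2 groups of 2, both on chromosome 15. Here too the longer list has more neighbours within a fixed gap, and lists of equal length were not compared. The largest Th2 groups, chosen after their values were seen, were chr10:19030388-20683785 with 6 regions, among whose genes were Ifngr1, Map3k5 and Map7, and chr9:13481215-15580108 with 6 regions, among whose genes were Maml2 and Sesn3. The regions made up 766 kb of the 1653 kb of the first group and 818 kb of the 2099 kb of the second. A protein-coding gene was touched by 82.7% of Th2-only regions, 72.7% of Th0-only regions, 63.6% of naive regions and 67.4% of windows of 636 sites. Over these chromosomes 111 genes of 20095 (0.552%) were in Th0 and 376 (1.87%) in Th2 regions, and the 12 in both were those of the shared loci on chromosomes 9 and 11.

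The Gata3-TSS bait in the same kinds of cells gave lists that overlapped more. Of its regions on chromosome 2, 48.5% of 68 in Th0 and 50.8% of 63 in Th2 were shared, against 10.3% and 4.48% for mG900. The bases in both lists were 34.1% of the bases in either for the Gata3-TSS bait and 4.59% for mG900, and on the other chromosomes 10.1% and 0.654%. Some regions of the mG900 lists near the bait were also in those of the promoter bait. Of the 18 Th2 regions within 2 Mb, 10 overlapped a Gata3-TSS region of Th2 cells and 8 one of Th0 cells, and of the 9 Th0 regions 3 and 1 did so. As the background there, 14.8% of the 418 windows of 50 sites within 2 Mb touched a Gata3-TSS region of Th2 cells and 13.4% one of Th0 cells. Windows held 50 sites and Th2 regions a median of 69, and a longer stretch is more likely to touch a region. Each number compares single libraries, and the differences between baits were not tested.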

How the data were processed

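4C-seq was made from mouse CD4 T cells, 1 library per bait and condition. Per the labels, crosslinking was for 10 min in 1% formaldehyde, the first cut was by NlaIII and the second by DpnII. For the libraries of the Gata3-TSS bait the paper names BglII as the second enzyme. The authors deposited, per library, a list of significant interacting regions called by w4Cseq on mm10, with chromosome, start and end and with no count, score or depth, so the values are positions only and the precision of a call is unknown. The bait fragment was found from the position the study gives. Starts and ends were read as 1-based, both included. From these, overlap, distance from the bait fragment, NlaIII sites (GRCm38), genes (GENCODE vM21, merged exons) and base composition were computed in Python 3.11.15 with numpy 2.4.6 and scipy 1.17.1, and checked on simulated lists. A gene counted as in a region from 1 base of overlap. Windows with unknown bases were left out of base composition. Named were all regions within 2 Mb, and beyond that the shared and the longest 10 regions per class on chromosome 2, the longest 8 (Th0-only) and 12 (Th2-only) elsewhere, genes within 5 Mb of the bait and members of the gene lists; 1 region named by this rule is not reported here. These members and lists were chosen with earlier results of these data known. Alternatives for overlap, length, distance and gene rules were computed. The Gata3-TSS list of mG900KO cells entered only the count of libraries that call a locus.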

Additional observations from a re-analysis of the deposited data

Results flagged for a closer look

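With mG900 as bait the Th2 list was the longer, and with Gata3-TSS as bait the Th0 list was. On chromosome 2 the Th2 list was 2.31 times as long as the Th0 list with the mG900 bait (29 and 67 regions) and 0.926 times as long with the Gata3-TSS bait (68 and 63). On the other chromosomes the ratio was 2.5 with the mG900 bait (68 and 170 regions) and 0.635 with the Gata3-TSS bait (104 and 66). Every ratio rests on 1 library per condition, and the difference was not tested. By the paper's methods the second enzyme also differed between the baits. The depth of the libraries is unknown and its part in these ratios was not tested.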

How the results depend on the processing

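Of 66 alternatives, 43 left the value within its own error or within 1.5 times, 23 moved it and 0 turned it. All the values are counts or shares without a sign, so the 0 says nothing of stability. The error of a share from few regions is also wide. The 10.3% of Th0 regions shared on chromosome 2 counted as unchanged at 3.70% and at 20.7%. Sharing on the other chromosomes became 0% for both lists with regions of at least the median length, with the longest Th2 regions taken to the number of Th0, without loci called in all 7 libraries and, chosen after seeing the data, without repeat-rich loci called in 6 or 7. Within 2 Mb the Th2-only regions became 9 at median length or more and 32 within 5 Mb, and the Th0-only regions 2 and 11, or 4 with regions up to 10 kb apart shared. The genes on chromosome 2 became 10 (Th0) and 17 (Th2) by gene start and 5 and 6 by whole gene. Elsewhere they became 62 and 220 by whole gene and 41 and 208 in regions of at least the median length. The Gata3 side share, chosen after seeing the data, became 61.5% and 61.8% within 5 Mb. No paired analysis was possible because each condition has 1 library and no test was made. The lists give no depth, so a region absent from a list may be under the threshold of a shallower library.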
